A study of Mus musculus with 18 samples.

Results

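STAT genes encode the latent transcription factors of cytokine and interferon signalling, and 6 of them were followed here: Stat2, Stat3, Stat4, Stat5a, Stat5b and Stat6. They were chosen as the rows of the gene count table that carry these symbols. All 6 were among its 54532 genes, and all 6 were among the 14876 genes with enough counts to be tested. The cells were plasmacytoid dendritic cells (pDCs), the immune cells known for abundant type I interferon. They were grown for 7 days from marrow of wild-type C57BL/6 mice with 80 ng/mL Flt3 ligand, which drives dendritic cell growth, and enriched on B220 beads to a routine purity of 80%. The RNA depleted of rRNA was read in directional pairs of 75 nt. The groups, each of 3 libraries, were imiquimod at 6 h and at 16 h, vehicle at 0 h, 6 h and 16 h, and untreated cells at 0 h. Imiquimod, an agonist of the endosomal RNA sensor TLR7, was given at 2.5 µg/mL. The vehicle is called LAL (Limulus amebocyte lysate) in the series, and its labels do not say whether the lysate itself or its reagent water was meant. All groups shared the wild-type strain, the Flt3 ligand culture and the bead enrichment. Nothing states that replicate libraries were made from different animals or wells. The p-values of the fold changes rest on the spread among libraries within groups, estimated over all 6 groups together, and that spread could be technical.

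STAT proteins wait in the cytoplasm until a cytokine binds its receptor. Receptor-bound JAK kinases then phosphorylate them on a tyrosine, and they pair, enter the nucleus and bind DNA. STAT2 acts in ISGF3, a complex with IRF9 that answers type I and III interferon at interferon-stimulated response elements. STAT3 follows the interleukin 6 and interleukin 10 families, STAT4 follows interleukin 12, STAT6 follows interleukins 4 and 13, and the close paralogs STAT5A and STAT5B follow interleukin 2, GM-CSF and related cytokines. In dendritic cell development STAT3 is known for its place downstream of Flt3 ligand, and STAT5 for holding back pDC formation under GM-CSF. SOCS proteins and CIS, themselves products of STAT target genes, switch the pathway off. The counts measure mRNA, not the phosphorylated protein.

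On GRCm38 (mm10), with the GENCODE M21 annotation, the genes lie on 3 chromosomes. Stat5b (ENSMUSG00000020919.11, chr11:100780731-100850724, minus strand), Stat5a (ENSMUSG00000004043.14, chr11:100859351-100885169, plus strand) and Stat3 (ENSMUSG00000004040.16, chr11:100885098-100939540, minus strand) are neighbours. Stat5b and Stat5a start 8626 bases apart and run away from each other, and the 3' ends of Stat5a and Stat3 overlap by 72 bases on opposite strands. Stat6 (ENSMUSG00000002147.18, chr10:127642986-127660957, plus strand) and Stat2 (ENSMUSG00000040033.16, chr10:128270559-128292849, plus strand) share chromosome 10. Stat4 (ENSMUSG00000062939.11, chr1:51987148-52107189, plus strand) is the longest of the 6 at 120042 bases, yet has the shortest exons, 3872 bases in all. Of these exon bases, 1033 (26.7%) also belong to Gm28177, a processed transcript on the same strand. Gm28177 itself had 11 to 25 counts per library with imiquimod at 16 h, against 2 to 5 with vehicle at 16 h. Stat5a and Stat5b share 387 of their 75-base transcript windows, 5.12% of those of Stat5a and 6.99% of those of Stat5b, so the division of reads between them is uncertain over that small part. How the authors counted reads of shared exons was not given in the sources used here.

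RefSeq promoter windows (GRCm38.p6), from 250 bases before a start to 50 bases after it, were at hand for all 6 genes, 9 windows in all. A core of the interferon-stimulated response element, GAAA followed by any 2 bases and a second GAAA, was searched on both strands. It occurred in 2 of the 9 windows, of Stat2 and of the second Stat4 start, and in 3.44% of 32851 promoters. These 2 windows are shown because they hold a match and belong to the genes with the largest fold changes with imiquimod. The window of the first Stat4 start (chr1:51986898-51987197, plus strand) held no match and is not shown. Capitals mark the matches. In the Stat2 window (chr10:128270248-128270547, plus strand) the first run of capitals is this match, on the minus strand, beginning at -222 from the start. The second, at -210, is a STAT-type palindrome of TTC and GAA with 4 bases of any kind between them. In the Stat4 window (chr1:52007990-52008289, plus strand) the match begins at -97.
Stat2: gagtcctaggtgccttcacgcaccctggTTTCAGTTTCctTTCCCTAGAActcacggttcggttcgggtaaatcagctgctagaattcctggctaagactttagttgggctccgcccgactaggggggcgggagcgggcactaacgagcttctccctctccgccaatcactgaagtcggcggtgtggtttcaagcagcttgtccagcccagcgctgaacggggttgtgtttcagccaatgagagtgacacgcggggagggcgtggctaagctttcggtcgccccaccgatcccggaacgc
Stat4, second start: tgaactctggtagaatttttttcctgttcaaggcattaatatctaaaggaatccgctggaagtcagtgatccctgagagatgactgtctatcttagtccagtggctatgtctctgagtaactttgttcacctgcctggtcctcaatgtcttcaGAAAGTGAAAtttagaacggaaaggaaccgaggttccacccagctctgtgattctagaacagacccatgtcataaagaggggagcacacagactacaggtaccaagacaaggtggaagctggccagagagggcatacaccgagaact
The palindrome with 4 spacer bases was found in 6.95% of promoters, and of the 9 windows in that of Stat2 alone. TTCNNNGAA, the usual gamma-activated site, was found in 8.3% of promoters and in 0 of the 9 windows. Such matches are descriptions of the letters only.

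Promoter windows of the Stat5 paralogs are shown because these neighbouring genes moved by different amounts. The pair printed is the one with the longest common run of bases. The other pairs of a Stat5a and a Stat5b window had longest common runs of 8, 9 and 11 bases and are not shown. The window of the second Stat5a start (chr11:100860234-100860533, plus strand) and that of the second Stat5b start (chr11:100822521-100822820, minus strand) hold a common run of 16 bases, in capitals. The run begins at -32 from the Stat5a start and at -23 from the Stat5b start. Only this longest exact run is marked, and the windows also share shorter runs on both sides of it. These second starts lie further apart than the 8626 bases between the starts of the genes.
Stat5a, second start: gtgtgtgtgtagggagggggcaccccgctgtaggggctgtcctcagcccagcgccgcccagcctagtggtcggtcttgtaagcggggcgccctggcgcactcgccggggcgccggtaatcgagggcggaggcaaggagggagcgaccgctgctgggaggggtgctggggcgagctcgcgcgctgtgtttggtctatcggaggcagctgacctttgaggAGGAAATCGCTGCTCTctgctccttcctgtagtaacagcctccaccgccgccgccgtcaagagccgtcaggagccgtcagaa
Stat5b, second start: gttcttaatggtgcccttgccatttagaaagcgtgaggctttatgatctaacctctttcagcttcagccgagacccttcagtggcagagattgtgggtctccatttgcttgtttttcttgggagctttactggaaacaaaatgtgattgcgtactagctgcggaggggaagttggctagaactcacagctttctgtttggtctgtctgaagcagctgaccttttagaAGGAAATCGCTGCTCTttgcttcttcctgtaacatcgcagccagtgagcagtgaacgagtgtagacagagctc

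Total counts per library ran from 10609741 to 13447018. The 12 pDC markers were detected in every group. Summed over the list they held 7122 to 7440.1 CPM, counts relative to the TMM-scaled library total, with imiquimod at 6 h, against 7678 to 7871 CPM with vehicle at 6 h. They held 4949.8 to 5042 CPM with imiquimod at 16 h, against 9454 to 9554 CPM with vehicle at 16 h. The 8 monocyte or macrophage markers summed to 252 to 259 CPM with imiquimod at 6 h, against 1618 to 1759.9 CPM with vehicle at 6 h. At 16 h that list held 99.6 to 116 CPM with imiquimod, against 2040.5 to 2118 CPM with vehicle. The 8 cDC1 markers also had lower sums with imiquimod, at 548 to 578 against 1384 to 1400.3 CPM at 6 h and at 503 to 538 against 1200.2 to 1247 CPM at 16 h. The 6 cDC2 markers held 157 to 163 CPM with imiquimod, against 290.3 to 307 CPM with vehicle at 6 h, and 135 to 137 against 294 to 299 CPM at 16 h, where Cd209a was at 0 with imiquimod. B cell markers, 7 in number, had higher sums, at 171 to 185 CPM with imiquimod against 108 to 118 CPM with vehicle at 6 h, and 192 to 205 against 115 to 145 CPM at 16 h. The other markers of these lists were detected in all of these groups, and neutrophil and erythroid lists held at most 1.99 CPM in any library. In bulk RNA, fewer cells of a type and less RNA per cell cannot be told apart, and the part of these shifts in the STAT values was not tested.

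The first question was how imiquimod changed the STAT genes at 6 h. All 6 were higher with imiquimod than with vehicle, by between 1.47-fold for Stat5b and 8.56-fold for Stat4. Across the 14876 genes tested, 76.9% were called in either direction and 37.7% were called higher, at an edgeR adjusted p under 0.05. The 3 imiquimod libraries lay above the 3 vehicle libraries for all 6 STAT genes, while groups lay apart in either direction for 76.6% of all genes. The median log2 fold change of the 6 was 2.04, against -0.037 over all genes tested.

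Stat2, the interferon STAT, had 1079, 1100.4 and 1114 CPM in the imiquimod libraries at 6 h, against 196, 188 and 194 CPM in the vehicle libraries. The groups lay far apart, and with imiquimod, though not with vehicle, Stat2 had the highest level per kilobase of exon. The log2 fold change was 2.51 (SE 0.0348, 95% interval 2.44 to 2.58, edgeR adjusted p = 2.33e-69), a rise of 5.70-fold, and 10.2% of genes tested moved further. Stat3, the interleukin 6 and 10 family STAT, had 862, 876 and 895 CPM with imiquimod, against 224, 229 and 243 CPM with vehicle. It rose 3.78-fold (log2 1.92, SE 0.0338, adjusted p = 5.54e-62 by edgeR).

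Stat4, the interleukin 12 STAT, had the lowest level per kilobase of exon at 6 h in both groups. It had 47.3, 47.1 and 45.8 CPM with imiquimod, from 466 to 487 counts a library, against 5.91, 4.55 and 5.91 CPM with vehicle, from 59 to 76 counts. The log2 fold change of 3.10 (SE 0.0947, edgeR adjusted p = 3.53e-45) was the largest of the family, and 6.76% of genes moved further. Because STAT4 is best known from T and NK cells, their 7 markers are given beside it. Summed, these held 0.882 to 1.55 CPM with imiquimod, against 0.308 to 0.985 CPM with vehicle, with Gzma at 0 in both groups and Cd3d at 0 with imiquimod. Their part in the Stat4 values was not tested.

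The STAT5 paralogs had different fold changes, with 95% intervals of 2.10 to 2.24 for Stat5a and 0.48 to 0.63 for Stat5b. Stat5a had 614, 612 and 662 CPM with imiquimod, against 134, 145 and 141 CPM with vehicle, a rise of 4.49-fold (log2 2.17, SE 0.0358, edgeR adjusted p = 5.41e-64). Stat5b had 231, 236 and 244 CPM with imiquimod, against 159, 164 and 162 CPM with vehicle. Its rise of 1.47-fold (log2 0.56, SE 0.0375, edgeR adjusted p = 2.23e-23) was the smallest of the 6, and 56% of all genes moved further. Stat6, the interleukin 4 and 13 STAT, had 380.3, 385 and 397 CPM with imiquimod, against 161, 159.9 and 172 CPM with vehicle, a rise of 2.36-fold (log2 1.24, SE 0.036, edgeR adjusted p = 1.13e-46). When libraries were scaled by their totals instead of TMM, the median of all genes moved by -0.35 at 6 h. All 6 genes then remained higher, but Stat5b by 0.21 (log2, edgeR adjusted p = 8.24e-07) only.

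**Figure D1:**
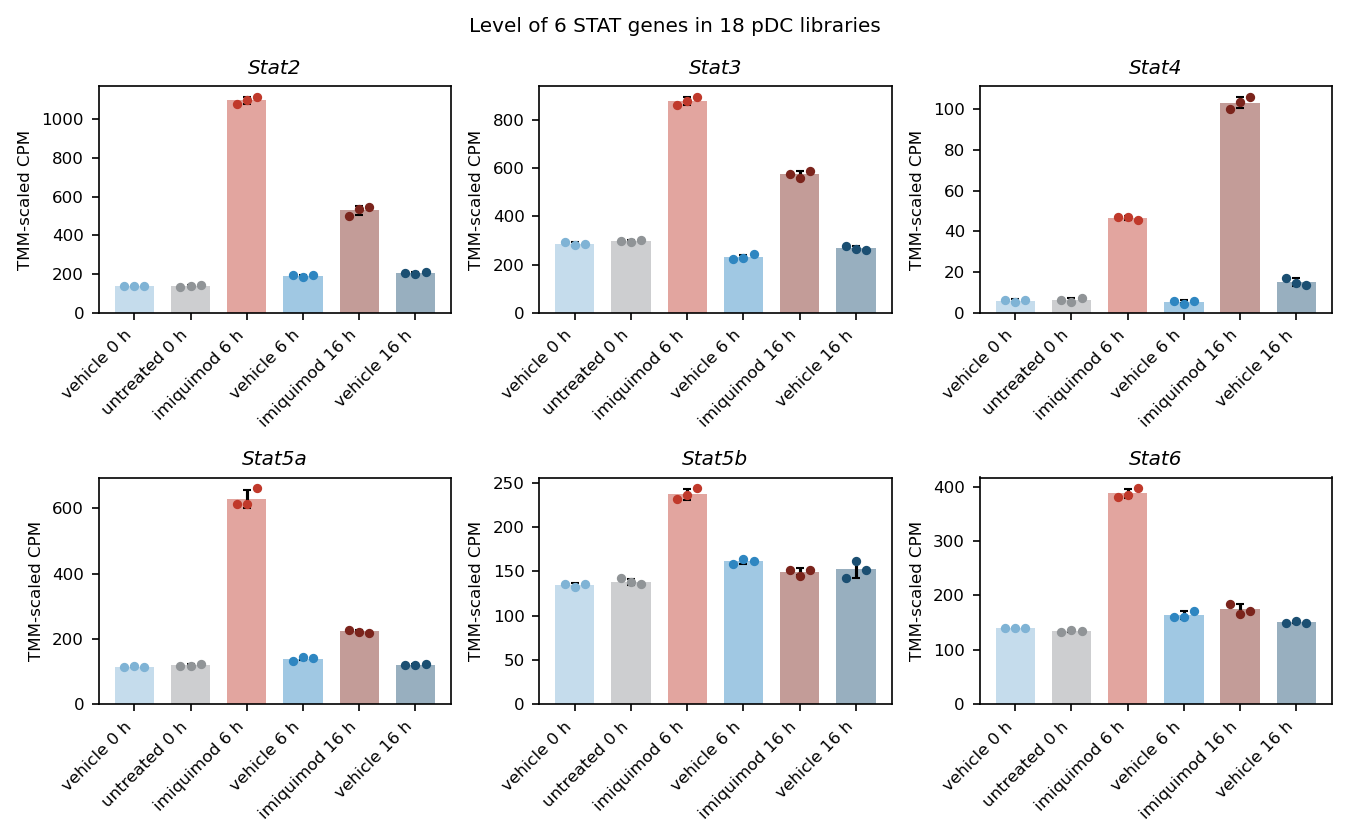
Level of each STAT gene in TMM-scaled CPM (vertical axis, a scale of its own per gene, starting at 0) in the 6 groups. Points are the 3 libraries, bars their mean and lines the SD; Stat2, Stat3, Stat5a, Stat5b and Stat6 stood highest with imiquimod at 6 h (Stat2 at 1079 to 1114 CPM), and Stat4 with imiquimod at 16 h (100.4 to 106 CPM).

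At 16 h, 5 of the 6 genes were higher with imiquimod than with the vehicle of the same time, and Stat5b did not pass the test. Over all genes tested, 77.2% were called in either direction and 39.1% were called higher. Groups lay apart for the same 5 STAT genes and for 78.7% of all genes. The median log2 fold change of the 6 was 0.99, against -0.0033 over all genes.

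Stat4 had 100.4, 104 and 106 CPM with imiquimod at 16 h, against 17.4, 14.8 and 13.5 CPM with vehicle. The rise of 6.80-fold (log2 2.76, SE 0.0684, 95% interval 2.63 to 2.90, edgeR adjusted p = 1.92e-51) was again the largest of the 6. The 7 T and NK cell markers together held 3.23 to 4.24 CPM with imiquimod, against 0.368 to 0.798 CPM with vehicle. Most of that was Klrb1c, which averaged 3.01 CPM with imiquimod and 0.148 CPM with vehicle, while Cd3g had 0 counts with imiquimod and Gzma had 0 in both groups.

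Stat2 had 501, 538 and 549 CPM with imiquimod at 16 h, against 205, 199 and 211 CPM with vehicle (log2 1.37, SE 0.0348, edgeR adjusted p = 1.48e-50). Stat3 had 575, 559.7 and 589 CPM with imiquimod, against 277, 266 and 262 CPM with vehicle (log2 1.10, SE 0.0336, edgeR adjusted p = 4.88e-45). These are rises of 2.58-fold for Stat2 and 2.14-fold for Stat3.

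Stat5a, at 229, 223 and 220.0 CPM with imiquimod at 16 h and 121, 119.7 and 123 CPM with vehicle, rose 1.85-fold (log2 0.88, SE 0.0381, edgeR adjusted p = 4.16e-35). Stat6 stood only slightly higher, at 185, 167 and 171 CPM with imiquimod, against 150.04, 153 and 149.7 CPM with vehicle. Its rise was 1.16-fold (log2 0.21, SE 0.0382, edgeR adjusted p = 1.16e-06), and 80.9% of genes moved further. Stat5b had 152, 145 and 152 CPM with imiquimod, against 143, 162 and 152 CPM with vehicle, and the groups overlapped. Its log2 fold change of -0.025 had a 95% interval of -0.10 to 0.053 (edgeR adjusted p = 0.564).

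**Figure D2:**
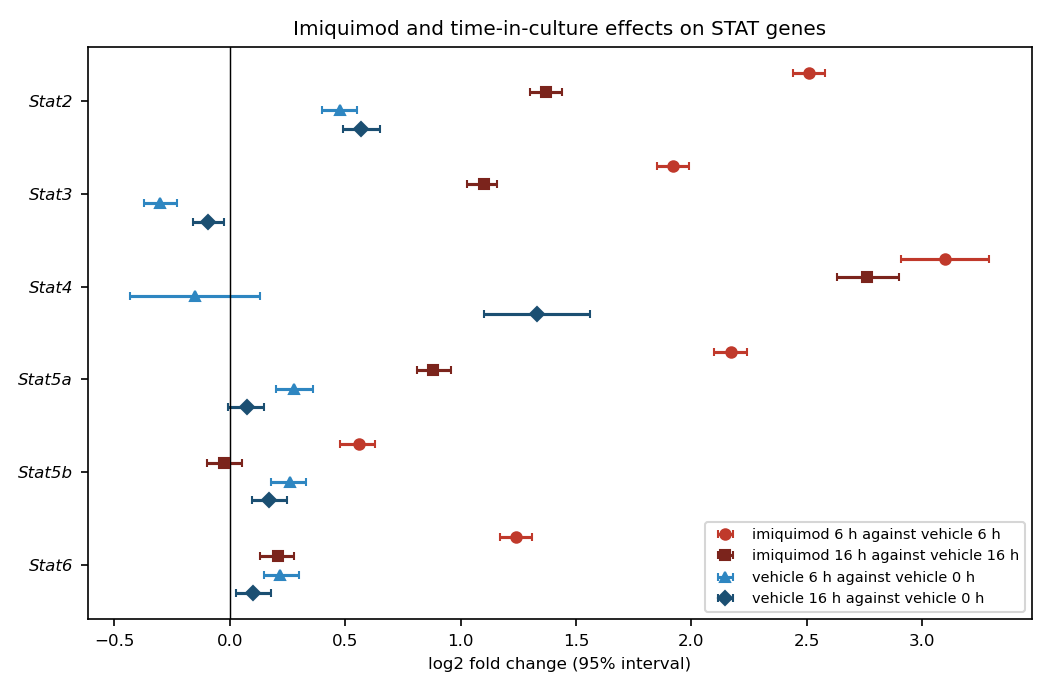
Log2 fold change (horizontal axis) of each STAT gene with its 95% interval, for imiquimod against vehicle at 6 h and at 16 h and for vehicle at 6 h and at 16 h against vehicle at 0 h. Stat4 had the largest imiquimod effects at both times (3.10 and 2.76), and the interval of Stat5b at 16 h spans 0.

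Whether the imiquimod effect differed between the times was tested directly, as the effect at 16 h minus that at 6 h. It was smaller at 16 h for all 6 genes, while 56.9% of all genes were called in either direction and 28.4% were called lower. The difference was -1.28 for Stat5a (SE 0.0524, edgeR adjusted p = 1.12e-35), -1.14 for Stat2 (SE 0.0488) and -1.03 for Stat6 (SE 0.0526). It was -0.82 for Stat3 (SE 0.0474) and -0.58 for Stat5b (SE 0.0541), each with an adjusted p of at most 7.74e-16. For Stat4 the difference was -0.33 (SE 0.134, edgeR adjusted p = 0.0287). That call was lost without vehicle 6 h replicate 2 (-0.20, adjusted p = 0.251), vehicle 16 h replicate 1 (-0.23, adjusted p = 0.173) or imiquimod 16 h replicate 1 (-0.29, adjusted p = 0.0679). It was also lost with no expression filter (-0.30, adjusted p = 0.0859), and under scaling by library totals the difference was 0.0022. Under that scaling the median of all genes shifted by 0.34, 75.5% of the called genes were higher in place of 50.1%, and the differences of Stat3 and Stat5b were -0.49 and -0.24.

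The imiquimod libraries of 16 h were also compared directly with those of 6 h. Of the 6 genes, 5 were lower at 16 h and Stat4 was higher. Over all genes 63.7% were called, 31.8% lower and 31.9% higher. The libraries of the 2 times lay apart for all 6 genes, as they did for 67.5% of all genes. Stat4 averaged 103 ± 2.84 CPM at 16 h and 46.7 ± 0.836 CPM at 6 h (SD, n = 3 each), a rise of 2.21-fold (log2 1.14, SE 0.0567, edgeR adjusted p = 7.78e-31). The other genes fell, by 1.49 for Stat5a, 1.15 for Stat6, 1.05 for Stat2, 0.66 for Stat5b and 0.61 for Stat3 on the log2 scale, with adjusted p of at most 2.59e-27 (edgeR). Under scaling by library totals these falls were smaller, with -0.31 for Stat3 and -0.37 for Stat5b, as the median of all genes shifted by 0.30 and 74.6% of the called genes were higher in place of 50%.

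The family also differed between the times in vehicle. Against vehicle at 0 h, 4 of the 6 genes were higher at 6 h, 1 was lower and Stat4 did not pass, while 52.9% of all genes were called, 26% higher and 26.9% lower. The libraries lay apart for 5 of the 6 and for 55.9% of all genes. Stat2 had 196, 188 and 194 CPM in vehicle at 6 h, against 137, 140.3 and 137 CPM at 0 h (log2 0.48, SE 0.0379, edgeR adjusted p = 8.58e-19). Stat3 went the other way, with 224, 229 and 243 CPM at 6 h, against 294, 280.15 and 284 CPM at 0 h (log2 -0.30, SE 0.0348, edgeR adjusted p = 6.45e-12). Stat5a, Stat5b and Stat6 were higher by 0.28, 0.26 and 0.22, with edgeR adjusted p of at most 7.12e-07. Stat4 differed by -0.15 (95% interval -0.43 to 0.13, edgeR adjusted p = 0.388).

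By 16 h in vehicle, Stat4 had 17.4, 14.8 and 13.5 CPM, against 6.52, 5.43 and 6.18 CPM at 0 h (log2 1.33, SE 0.116, edgeR adjusted p = 4.70e-17). This rise of 2.51-fold took place with no imiquimod, and 8.01% of genes moved further. In all, 4 of the 6 genes were higher and 1 lower than at 0 h, beside 58.4% of all genes called, 28.4% higher and 30% lower. Groups lay apart for all 6, Stat5a included, which was not called (0.073, edgeR adjusted p = 0.12), and for 63.6% of all genes. Stat2 was higher by 0.57 and Stat5b by 0.17. Stat3 had a small value (-0.093, edgeR adjusted p = 0.018), as did Stat6 (0.10, edgeR adjusted p = 0.0185). Without vehicle 16 h replicate 2, Stat3 (-0.079, adjusted p = 0.0859) and Stat6 (0.10, adjusted p = 0.053) were not called, and 3 of the 6 genes were. The Stat3 call was also lost without vehicle 0 h replicate 1 (-0.064), vehicle 0 h replicate 3 (-0.088) or vehicle 16 h replicate 3 (-0.076), and the Stat6 call under scaling by library totals (0.055).

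Between 6 h and 16 h in vehicle, 2 genes were higher at 16 h, 2 lower and 2 not called, against 30% of all genes called, 14.6% higher and 15.4% lower. The libraries lay apart for 5 of the 6 and for 37.4% of all genes. Stat4 was higher by 1.48 (SE 0.118, edgeR adjusted p = 2.31e-18), and 3.04% of genes moved further. Stat3 was higher by 0.21, Stat5a lower (-0.21) and Stat6 lower (-0.12, edgeR adjusted p = 0.0121). The call of Stat6 was lost without vehicle 6 h replicate 3 (-0.088, adjusted p = 0.113), and the number of STAT genes called ran from 3 to 6 as single libraries were left out, with 6 called without vehicle 16 h replicate 2. Stat2 (0.092, adjusted p = 0.05) was not called, though it was without vehicle 6 h replicate 1 (0.10, adjusted p = 0.0234), and Stat5b (-0.083) was called under scaling by library totals (-0.12, adjusted p = 0.00985). Vehicle at 0 h and untreated cells at 0 h did not differ by the test for any of the 6 genes, whose log2 values ran from -0.058 to 0.057 (edgeR adjusted p of at least 0.98). Their libraries lay apart for 2 of the 6, with Stat5a lower and Stat6 higher in vehicle, and for 10.9% of all genes. Over all 14876 genes 0% were called, by edgeR and by DESeq2 alike, with 708 (4.76%) at an unadjusted p under 0.05.

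Levels were set against each other after division by exon length, as CPM per kilobase. That length joins the exons of all annotated transcripts, such as 9527 bases for Stat3 and 4402 for Stat6. Which transcripts the cells used was not examined, and another length could change the order. Overlap here refers to the spread among libraries alone. In vehicle at 0 h the order was Stat6 (31.9 CPM per kilobase), Stat3 (30.03), Stat5b (24.4), Stat2 (23.3), Stat5a (16.2) and Stat4 (1.56), and no neighbours overlapped. In untreated cells Stat3 (31.3) and Stat6 (30.7) overlapped at the top, and the other genes kept this order. With imiquimod at 6 h Stat2 led at 185 ± 2.96 CPM per kilobase (SD, n = 3). Stat3 (92.2), Stat5a (88.2) and Stat6 (88.0) followed and overlapped, ahead of Stat5b (42.8) and Stat4 (12.1). In vehicle at 6 h the order was Stat6 (37.3), Stat2 (32.5), Stat5b (29.1), Stat3 (24.4), Stat5a (19.6) and Stat4 (1.41). Stat2 thus made up 36.4% of the summed level of the 6 genes with imiquimod, against 22.5% with vehicle.

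With imiquimod at 16 h Stat2 still led at 89.3 CPM per kilobase, followed by Stat3 (60.3), Stat6 (39.6) and Stat5a (31.4). Stat5b (27.01) and Stat4 (26.7) came last and overlapped. In vehicle at 16 h Stat2 (34.6) and Stat6 (34.3) overlapped, as did Stat3 (28.2) and Stat5b (27.5), ahead of Stat5a (17.003) and Stat4 (3.93). Stat4 held 9.73% of the summed level with imiquimod at 16 h, against 2.7% with vehicle. The share of all counts that fell on the 6 genes was 0.267% to 0.274% with imiquimod at 6 h, against 0.093% to 0.0957% with vehicle, and 0.177% to 0.18% at 16 h, against 0.0932% to 0.0937%.

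**Figure D3:**
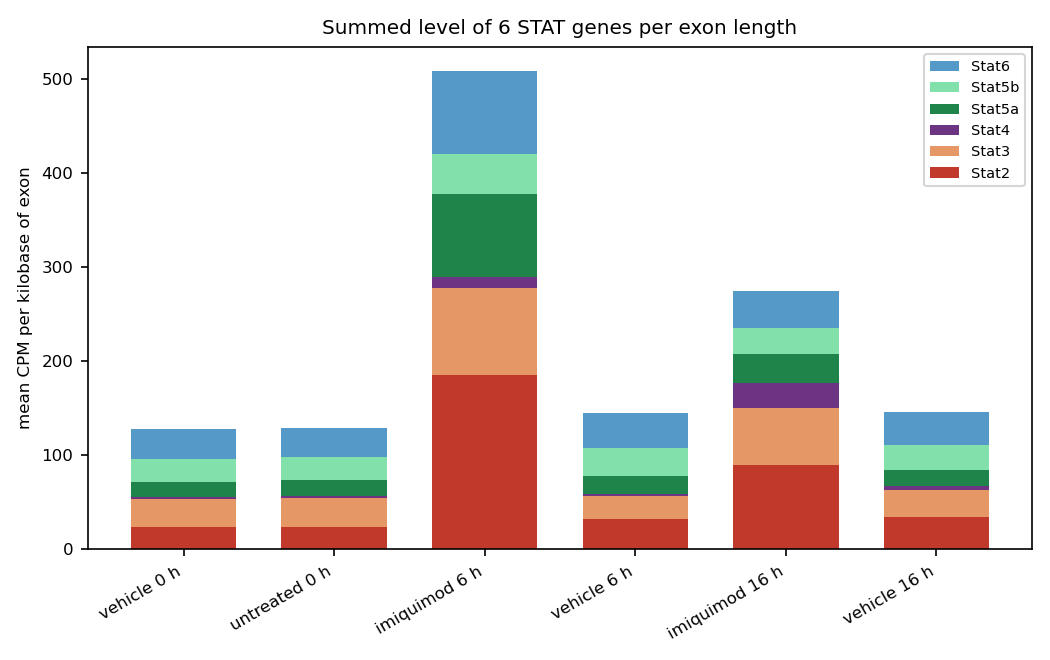
Mean CPM per kilobase of exon (vertical axis) of the 6 STAT genes, stacked, in each group. Stat2 held 36.4% of the stack with imiquimod at 6 h and 22.5% with vehicle at 6 h, and Stat4 held 9.73% with imiquimod at 16 h and 2.7% with vehicle at 16 h.

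The STAT5 paralogs were also set against each other library by library. Stat5a took 72.6% ± 0.464 of the counts of both genes with imiquimod at 6 h, against 46.5% ± 0.56 with vehicle (SD, n = 3 each), a difference of 26.2 percentage points. At 16 h it took 59.9% ± 0.675 with imiquimod, against 44.4% ± 1.7 with vehicle, a difference of 15.5 points. The groups did not overlap at either time, and the two-sided exact permutation test gave p = 0.1 for each, the smallest that 3 against 3 libraries allow. In vehicle at 6 h and at 0 h the shares were 46.5% and 46.1% (exact permutation p = 0.6), and untreated cells had 46.4%.

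**Figure D4:**
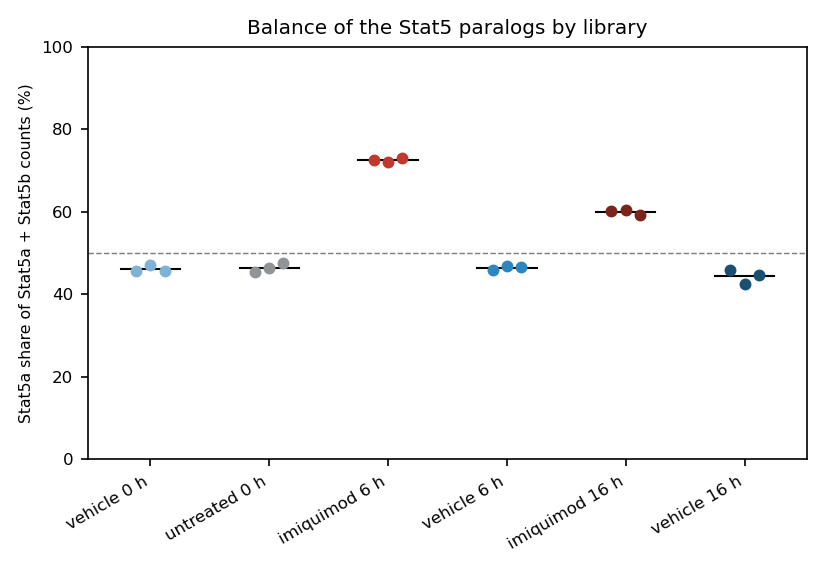
Share of Stat5a in the summed counts of Stat5a and Stat5b (vertical axis, percent) in each library, with the group mean as a line and 50% dashed. The 3 imiquimod libraries stood at 72.2% to 73.1% at 6 h and at 59.2% to 60.5% at 16 h, while the vehicle and untreated libraries stood between 42.6% and 47.5%.

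Profiles over the 6 groups were compared as group means of log2 CPM, each gene centred on its own mean, by the root mean square difference, smaller for more alike genes. Within the family the difference was smallest between Stat5b and Stat6 (0.26) and largest between Stat4 and Stat5b (1.5). The measure also depends on how much each gene changed. The SD of the centred profile was 0.27 for Stat5b, 0.52 for Stat6 and 1.61 for Stat4. The value of 0.26 is thus near the whole spread of Stat5b. Stat5a was nearer to Stat3 (0.33) and Stat2 (0.36) than to its paralog Stat5b (0.63). Among 8407 protein-coding genes with at least 10 CPM, the nearest to Stat2 were Grap (0.11), Myo1g and Icam1 (0.12 each), the last a gene of an adhesion molecule. Nearest to Stat3 were Lacc1 (0.059), B3gnt5 (0.075) and Sp110 (0.08). Stat5a lay nearest to Hspa8 (0.051), which encodes a constitutive heat shock chaperone, then Bcl9 (0.058) and the co-chaperone gene Dnaja1 (0.092). Stat5b was nearest to Tfe3 (0.039), Cggbp1 (0.04) and Zmiz2 (0.047), and Stat6 to Cdc42bpb (0.047), Rasa4 (0.051) and Ahsa2 (0.074). Stat4, with the widest profile of the 6, had no neighbour as close, with Ksr1 (0.32), Cd1d1 (0.33) and Serpinb6b (0.36) the nearest.

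The genes that feed the family were read beside it, as counts of called members of each list. Of 28 cytokine ligand genes listed, 11 were tested. Of these, 6 (Il6, Il10, Il27, Lif, Osm and Ifng) passed the filter on low counts only through the imiquimod libraries, so they had to differ and are described by level alone. Of the other 5, 4 were higher and 1 lower with imiquimod at 6 h, against 37.7% of all genes higher and 39.2% lower. Il6, the chief STAT3 cytokine gene, averaged 153 ± 6.92 CPM with imiquimod, against 0.133 ± 0.124 CPM with vehicle. Il12b, of the p40 chain shared by the STAT4 cytokines interleukin 12 and 23, averaged 899.8 ± 7.71 CPM, against 2.33 ± 0.739 CPM. Il10 (6.25 against 0.0274 CPM) and Il27 (9.0 against 0.0259 CPM), of cytokines that use STAT3, were near 0 with vehicle. Il12a, of the p35 chain that interleukin 12 has and interleukin 23 lacks, was lower (log2 -0.89, SE 0.175, edgeR adjusted p = 5.34e-06). At 16 h 3 of those 5 were higher, 1 was lower and 1 was not called, against 39.1% of all genes higher and 38.1% lower. Il6 then averaged 256 ± 4.13 CPM, against 0.772 ± 0.0329 CPM with vehicle. Ifng averaged 4.95 ± 0.549 CPM, with 0 counts in the vehicle.

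Receptor genes were grouped by the STAT they use. Beside each count of receptors stand 37.7% of all genes higher and 39.2% lower at 6 h, and 39.1% and 38.1% at 16 h. Of the 3 receptor genes of STAT4 cytokines, Il23r passed the filter only through the imiquimod libraries, and the other 2 were both called higher at 6 h. Il12rb1, the chain that interleukin 12 and 23 share, averaged 19.96 ± 2.31 CPM with imiquimod, against 1.19 ± 0.197 CPM with vehicle, a rise of 16.7-fold (edgeR adjusted p = 1.83e-36). Il12rb2, the chain only interleukin 12 uses, was higher by 0.42 at 6 h (0.074 and not called under scaling by library totals) and lower (-1.01, SE 0.0615) at 16 h. Il23r averaged 5.28 CPM with imiquimod at 6 h, against 0.0531 CPM with vehicle, and 23.5 ± 1.27 CPM at 16 h, against 0.536 ± 0.0938 CPM.

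Receptor genes of STAT3 cytokines were lower in 5 of 8 tested members and higher in 3 at both times, with medians of -1.22 at 6 h and -1.53 at 16 h. The share called higher is close to that of all genes. Csf3r lost its 6 h call under scaling by library totals (0.58, edgeR adjusted p = 0.095), and likewise when replicate 2 of vehicle or replicate 1 of imiquimod was left out (0.73 and 0.71, edgeR adjusted p = 0.053 and 0.0798), which left 2 called higher. Il6ra, which binds interleukin 6, fell to 23.5 ± 0.856 CPM with imiquimod at 6 h, against 170.2 ± 0.515 CPM with vehicle (log2 -2.86, SE 0.0532, edgeR adjusted p = 2.68e-60), and its value was -3.65 at 16 h. Lifr, of the leukaemia inhibitory factor receptor, stood at -2.39 at 6 h and -3.53 at 16 h. Il6st, which encodes gp130, the signalling chain of the interleukin 6 family but not of every receptor listed, was -0.94 at 6 h (SE 0.0321) and -2.10 at 16 h (SE 0.0341). Il21r rose by 1.51 (SE 0.0561) at 6 h. Csf3r, of the G-CSF receptor, rose by 0.93 (SE 0.322) at 6 h and 2.67 (SE 0.226) at 16 h.

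Of 13 tested receptor genes of STAT5 cytokines, Il2rb and Prlr passed the filter only through the imiquimod libraries. Of the other 11, 7 were higher and 2 lower at 6 h, and 6 were higher and 4 lower at 16 h. With DESeq2 size factors 1 gene of the list was lower at 6 h. Il2ra, which encodes CD25, the high-affinity interleukin 2 chain, averaged 368 ± 11.2 CPM with imiquimod at 6 h, against 9.43 ± 1.19 CPM with vehicle, a log2 change of 5.28 (SE 0.0578, edgeR adjusted p = 1.53e-76), and 3.15 (SE 0.0613) at 16 h. Il15ra rose by 3.58 (SE 0.096), and Il2rg, of the common gamma chain, by 2.09 (SE 0.0556) at 6 h. Of the STAT6 receptors, Il4ra rose by 0.88 (SE 0.0445) and Il13ra1 fell (-0.49, SE 0.0675) at 6 h, and their values were 0.35 and -2.93 at 16 h. Interferon receptor genes were higher in 2 of 6 and lower in 2 at 6 h, and higher in 1 and lower in 4 at 16 h. The 6 h counts are close to the shares of all genes, and under scaling by library totals they were 1 higher and 4 lower. Ifngr1, the binding chain for interferon gamma, was -2.55 at 6 h (SE 0.0578) and -2.33 at 16 h. Ifnar2, of the type I interferon receptor, was -0.81 (SE 0.0343) and -1.15. Its partner Ifnar1 was 0.25 at 6 h, but -0.10 under scaling by library totals.

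The JAK kinase genes, which phosphorylate STAT proteins, were all 4 higher at 6 h (median 0.74), against 37.7% of all genes. Jak2, the kinase of the STAT4 and GM-CSF receptors, averaged 1210.6 ± 20.1 CPM with imiquimod, against 398 ± 9.06 CPM with vehicle (log2 1.61, SE 0.0315, edgeR adjusted p = 1.18e-58). Jak1 rose by 0.97 (SE 0.0352). Tyk2 rose by 0.51 and Jak3 by 0.48, or by 0.16 and 0.13 under scaling by library totals. At 16 h Jak1 (0.15) and Jak2 (0.14) were still higher, Tyk2 was lower (-0.44, SE 0.0355) and Jak3 was not called (0.082, edgeR adjusted p = 0.203). The difference between the times was called lower for all 4, with -1.46 for Jak2 and -0.40 for Jak3, against 28.4% of all genes called lower. Under scaling by library totals Jak3 lost that call (-0.06, edgeR adjusted p = 0.555), while Jak2 stood at -1.13. Irf9, which encodes the DNA-binding partner of STAT2 in ISGF3, averaged 229 ± 6.62 CPM with imiquimod at 6 h, against 90.01 ± 2.80 CPM with vehicle (log2 1.34, SE 0.0399, edgeR adjusted p = 4.76e-46). At 16 h its log2 fold change was 0.71 (SE 0.0407).

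Of the 8 inhibitor genes of the SOCS and CIS family, 7 were higher and 1 lower at 6 h (median 2.06), against 37.7% of all genes higher and 39.2% lower. Under scaling by library totals 4 were higher and 3 lower, and without vehicle 6 h replicate 1 also 4 were called higher. Cish, of an inhibitor of STAT5 signalling, averaged 43.0 ± 0.214 CPM with imiquimod, against 0.632 ± 0.0778 CPM with vehicle (log2 6.07, SE 0.15, edgeR adjusted p = 1.48e-51). Socs3, whose product blocks gp130, averaged 300.3 ± 16.4 CPM, against 5.58 ± 0.525 CPM (log2 5.75, SE 0.0675). Socs1, of an inhibitor of interferon receptors, rose by 4.01 (SE 0.111), and Socs2, of an inhibitor of growth hormone signalling, by 3.90 (SE 0.0662). Socs5 was lower (-1.0, SE 0.0818). Socs6 (0.22), Socs7 (0.12) and Socs4 (0.11) were called higher but changed sign under scaling by library totals (-0.13, -0.23 and -0.24). Without vehicle 6 h replicate 1, none of the 3 was called, at 0.15, 0.058 and 0.06. Leaving out imiquimod 6 h replicate 1 also ended the calls of Socs4 (0.084) and Socs7 (0.095). For Socs4 the same held for imiquimod 6 h replicate 2 (0.10) and vehicle 6 h replicate 2 (0.07), and for Socs7 it held for vehicle 6 h replicate 3 (0.088). At 16 h 5 of the 8 were higher, 2 lower and 1 not called, against 39.1% of all genes higher and 38.1% lower. The values were 4.39 for Socs3, 3.72 for Socs1, 3.37 for Cish and 2.74 for Socs2. They were 0.14 for Socs4, 0.10 for Socs6 (edgeR adjusted p = 0.15), -0.47 for Socs7 and -1.09 for Socs5.

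**Figure D5:**
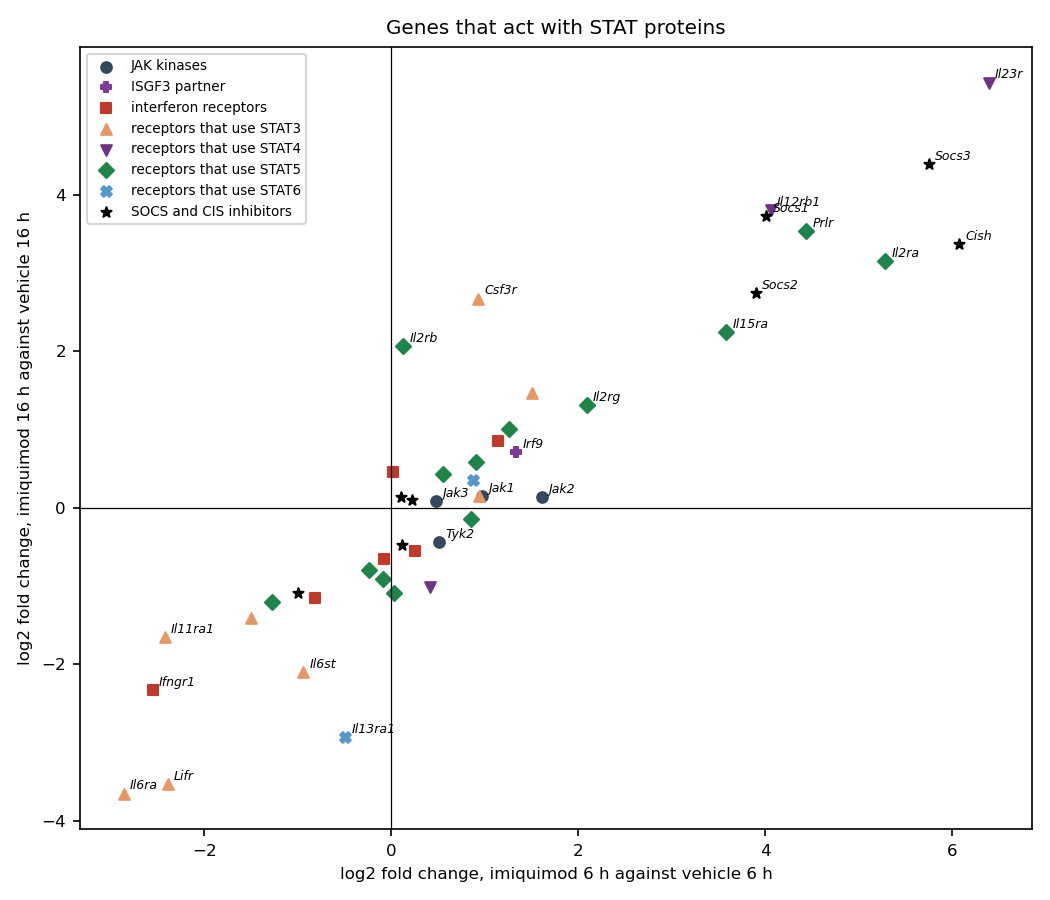
Log2 fold change of genes that act with STAT proteins at 6 h (horizontal axis) and at 16 h (vertical axis), imiquimod against vehicle of the same time, by list; labels name the JAK genes, Irf9 and the genes with the largest values. Cish and Socs3 lie far to the upper right, Il6ra and Lifr to the lower left. The 4 JAK genes lie lower on the 16 h axis than on the 6 h axis. Il23r (with very few vehicle counts at 6 h), Il2rb and Prlr are also drawn. They passed the filter only through the imiquimod libraries, so their places are not results.

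Among other regulators, a list of 10 genes held PIAS and phosphatase genes and also Usp18, which is neither. Of these 10, 7 were higher at 6 h and 1 lower, against 37.7% and 39.2% of all genes. Under scaling by library totals 4 were higher and 5 lower. Without vehicle 6 h replicate 2, 2 were lower. Usp18, whose product blocks signalling at the type I interferon receptor, rose by 5.70 (SE 0.059) at 6 h and 4.62 (SE 0.0629) at 16 h. Ptpn2, of a phosphatase that acts on JAK and STAT proteins, rose by 1.04 (SE 0.0595) and 0.99 (SE 0.0597). Of 9 cofactor genes 6 were higher and 3 lower at 6 h, or 3 higher and 4 lower under scaling by library totals. Parp14, of a cofactor of STAT6, averaged 2435 ± 40.7 CPM with imiquimod at 6 h, against 101 ± 5.62 CPM with vehicle, a rise of 24.1-fold (edgeR adjusted p = 8.47e-84), and Nmi, of a STAT-binding protein, rose by 3.70 (SE 0.115). Pdlim2, of a nuclear protein known to promote the degradation of STAT proteins, was lower (-2.33 at 6 h, SE 0.12, and -2.14 at 16 h, SE 0.101).

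Textbook target genes were counted by STAT, beside 37.7% of all genes higher and 39.2% lower at 6 h, and 39.1% and 38.1% at 16 h. Of 9 STAT5 targets, Osm passed the filter only through the imiquimod libraries. The other 8 were all called higher at 6 h, and 7 were higher and 1 lower at 16 h. The weakest was Bcl6, of a repressor that STAT5 holds down, at 0.12 at 6 h (edgeR adjusted p = 0.045, -0.23 under scaling by library totals) and -0.13 at 16 h (edgeR adjusted p = 0.0317). Leaving out replicate 2 or 3 of vehicle, or 1 or 3 of imiquimod, ended its call at 6 h (0.036 to 0.12). Leaving out replicate 1 or 2 of either group ended it at 16 h (-0.13 to -0.072). Ccnd2, of cyclin D2, averaged 4219 ± 109.9 CPM with imiquimod at 6 h, against 42.9 ± 4.54 CPM with vehicle (log2 6.62, SE 0.0454, edgeR adjusted p = 1.44e-90). Gfi1, of a transcriptional repressor, rose by 6.40 (SE 0.149). Cish, Socs2 and Il2ra are members of this list as well as of those above. Of 10 STAT3 targets, 8 were higher and 1 lower at both times (medians 1.8 and 1.26), or 8 higher and 2 lower at 6 h under scaling by library totals, with 4.31 at 6 h and 5.05 at 16 h for Myc. Of 6 STAT4 targets, Ifng and Tbx21 passed the filter only through the imiquimod libraries. Of the other 4, 1 was higher and 3 lower at 6 h, and all 4 were lower at 16 h, with -1.07 and -2.04 for Il18rap. Tbx21, of the transcription factor T-bet, averaged 5.44 ± 1.40 CPM with imiquimod at 6 h, against 0.553 ± 0.0188 CPM with vehicle. Of 9 STAT6 targets only 4 were tested, with 1 higher and 2 lower at 6 h (1 lower in a fit on the groups compared alone), and 1 higher and 3 lower at 16 h. Ccl22, of a chemokine, was the one called higher. It averaged 1145 ± 8.42 CPM with imiquimod at 6 h, against 67.5 ± 3.16 CPM with vehicle. In vehicle it was also higher at 6 h than at 0 h (log2 3.76, SE 0.0995). Fcer2a was lower with imiquimod, with -2.67 at 6 h (SE 0.337) and -4.03 at 16 h (SE 0.421). These lists were chosen with earlier results of these data known, and other factors also act on their genes.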

How the data were processed

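RNA-seq of 18 pDC libraries was used. The authors deposited unnormalised whole-number counts for every gene. Reads were aligned with STAR to mm10, per the submitters' processing notes; the counter, its strand and multi-mapping settings and the gene annotation are not given in the sources used here. Of the identifiers, 97.6% were found in GENCODE M21, which supplied coordinates and exon lengths.

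The 6 groups of 3 libraries were fitted together with edgeR 4.0.16 (R 4.3.3, quasi-likelihood test, filterByExpr with a minimum count of 10, TMM, robust dispersion). Calls were at a Benjamini-Hochberg adjusted p under 0.05 over all 14876 genes tested. The SE is the log2 fold change divided by the root of its F statistic, and understates the error of large changes with few counts. Total counts of 10609741 to 13447018 and a biological coefficient of variation of 3.08% set the precision. The fit was run on simulated counts with 200 genes changed, far fewer than were called with imiquimod. That run therefore could not test the scaling between libraries. Shares were compared by exact permutation.

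The members and lists were chosen with earlier results of these data known, and not every gene of the STAT family was analysed here. Named were the 6 genes in every comparison, all JAK, Irf9, SOCS and CIS genes, and, of each other list, some of the up to 4 called members with the largest change at 6 h or 16 h and a mean of at least 1 CPM. Il12a, Bcl6 and the genes that passed the filter only through the imiquimod libraries were named after their values were seen. Alternatives were DESeq2 size factors, scaling by library totals, dropping the filter or setting it to 1 CPM in 3 libraries, a replicate block, fits on the compared groups alone, the Wald test of DESeq2 1.42.0, removal of rRNA genes and removal of each library in turn. Their use on the pathway genes and list counts was added after seeing the data.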

Additional observations from a re-analysis of the deposited data

Results flagged for a closer look

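The difference between the imiquimod effects at the 2 times, 16 h minus 6 h, was called for each of the 6 STAT genes, and all 6 values are below 0. On the log2 scale the difference was -1.14 for Stat2, -0.82 for Stat3, -0.33 for Stat4, -1.28 for Stat5a, -0.58 for Stat5b and -1.03 for Stat6, from the test of the difference itself in edgeR. The Stat4 value was no longer called without any of 3 single libraries, as given with the comparison. Over all genes tested, 28.5% had a higher and 28.4% a lower value by the same test. Stat4 differs from the others in its levels. It was higher with imiquimod at 16 h than at 6 h, and also higher in vehicle at 16 h than at 6 h, whereas the other 5 genes were lower with imiquimod at 16 h than at 6 h.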

How the results depend on the processing

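For the 6 STAT genes, 708 fold changes were recomputed over the alternatives, and 678 kept their direction and their side of the threshold. Of the rest 13 lost and 9 gained a call, all in the difference for Stat4 or between vehicle times, and 8 changed sign. All calls of the imiquimod against vehicle comparisons at 6 h and 16 h held. The sign changed for Stat4 in the difference between the effects under scaling by library totals (0.0022), and with a library left out for Stat5b at 16 h, which was not called (range -0.058 to 0.03). It also changed in values near 0 for vehicle at 0 h against untreated cells, for Stat2 with no filter (-0.0023), and with a library left out for Stat2 (-0.017 to 0.027) and Stat4 (-0.18 to 0.046). In that comparison 1 gene of all was called with DESeq2 size factors, 1 under scaling by library totals, 5 with no filter, 4 with only the groups compared and 0 to 7 with a library left out. For vehicle at 16 h against 0 h, 3 to 5 STAT genes were called with a library left out. Of 1484 values of the named pathway genes against vehicle, 1465 held, 15 lost their call and 4 changed sign under scaling by library totals at 6 h: Ifnar1 (-0.10), Socs4 (-0.24), Socs6 (-0.13) and Socs7 (-0.23). Bcl6 and the 6 h value of Csf3r were not among these values. Bcl6 also changed sign at 6 h under that scaling (-0.23), and both genes lost calls as given with their lists. The 6 h call of Bcl6 was also lost with no filter, without rRNA genes and with only the groups compared. Its 16 h call was lost by the DESeq2 Wald test (adjusted p = 0.0576). The counts of called members of the lists at 6 h also moved under scaling by library totals, as given beside them. Correlations between same-numbered libraries were at most 0.084, under the 0.1 set for pairing, so the main fit was left unpaired. With 3 libraries a group, these values cannot show whether same-numbered libraries shared a culture or animal. With a replicate block, 11400 genes were called at 6 h and 11448 at 16 h, and every STAT gene kept its call.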
